A study of Mus musculus with 4 samples.

Results

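The genes described here are 41 genes that license origins of DNA replication, drive the replication fork or supply it with nucleotides. They were taken by name from a fixed list, which was chosen with earlier results of these data known. Each was read from the probe set with the highest mean signal over the 4 arrays of the series. The platform annotation gave 89 probe sets for 40 of the 41 genes. All 40 passed a filter on dim probe sets and stood among 12115 genes tested. Chaf1a, the large subunit of a histone chaperone, was not analysed here.

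A cell copies its genome once per cycle by loading an inactive helicase at origins before S phase and firing it during S phase. The origin recognition complex, Cdc6 and Cdt1 load the ring of Mcm2 to Mcm7, a step called licensing, and geminin (Gmnn) blocks Cdt1 so that no origin is licensed again. Cdc45 and the GINS complex turn the loaded ring into an active helicase, DNA polymerases copy the strands, and ribonucleotide reductase and thymidylate enzymes make the nucleotides. Resting lymphocytes hold few of these transcripts, and many of them are made under control of the E2F transcription factors when a cell enters the cycle.

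The samples were CD4+ Foxp3+ regulatory T cells (Treg cells, which hold other immune cells in check), taken from C57BL/6 spleens. Each of 2 numbered pairs held 1 wild-type array and 1 array titled Foxo1/3-deficient, lacking by that title the transcription factors Foxo1 and Foxo3. The genotype field of those 2 samples names only Foxo1. Not given in the sources used here are the age of the mice, how the genes were deleted, and whether each array stands for its own mouse; p-values therefore measure only the spread between these arrays, which may be technical. Values are MAS5 signals, the linear probe-set intensities of an Affymetrix array after background correction and scaling. A difference is labelled-deficient minus wild-type on the log2(signal + 17) scale, where 17 keeps dim values from giving large ratios. A gene is said to have risen or fallen only where limma, a linear model fitted over all genes, gave a Benjamini-Hochberg adjusted p under 0.05.

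All 4 arrays had a 2% trimmed mean signal of 500.003, and their median signals lay between 72.0 and 83.4. The Foxo1 probe set read here was higher, not lower, on the labelled-deficient arrays, at 6949 and 6697 against 2383 and 1254, so every direction below is that of the arrays as labelled. Foxo3, the other gene of the title, read 1876 and 2635 in wild-type against 1424 and 1308, lower in both pairs without overlap (1.62-fold; limma adjusted p = 0.242, 0.0115 with the block). Whether the Foxo1 probe set falls inside the deleted stretch is unknown here. Foxp3, the transcription factor that defines Treg cells, read 6540 and 6285 in wild-type against 6504 and 6056. Summed signals of 6 Treg markers lay between 37521 and 38422 in the wild-type and between 37918 and 38409 in the labelled-deficient samples. The brightest of them was Ikzf2. Il2ra, at 2449 and 3584 against 4416 and 3962, was higher in the labelled-deficient samples without overlap, as was Ctla4. The other 4 had log2 differences below 0, and none of the 6 passed in either fit (limma). Other dividing cells of the spleen were looked for by their markers. Of 9 erythroid markers 6 were on the array, with sums of 503 and 623 in wild-type and 679 and 533 in labelled-deficient samples. The hemoglobin gene Hba-a1 reached at most 74.8. Of 8 B cell markers 6 were on the array, with sums of 14713 and 11266 against 14333 and 19050, most of it from Ighm. Sums of the 2 CD8 T cell markers were 518 and 367 against 423 and 663. Of 5 plasma cell markers all 5 were on the array, with sums of 1850 and 2523 against 1943 and 3978, and of 4 natural killer cell markers 3 were, with sums of 115 and 65.4 against 77.9 and 52.1. The 7 myeloid markers summed to 7159 and 4660 against 9726 and 7247, and 4 of 5 dendritic cell markers to 465 and 469 against 585 and 401. In no list but that of natural killer cells was the sum higher on the wild-type array in both pairs, and none of those markers was bright enough to be tested. No marker of these cell types passed the test without the block. With it 1 B cell marker fell, and 1 B cell and 2 myeloid markers rose, where 787 of all 12115 genes fell and 659 rose. The part of these cell types in the results below was not tested.

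The comparison of genotypes asked how transcripts of the replication machinery differ by labelled genotype. All 40 measured genes had a log2 difference below 0, against 50.3% of all genes, from -1.50 for Rrm2 to -0.05 for Pold2. Their median was -0.77, which is 1.71-fold lower, and the median over all 12115 genes was -0.0028. For 35 of the 40 both labelled-deficient arrays lay below both wild-type arrays, as for 21.1% of all genes. The exceptions were Orc2, Pola1, Pold2, Rpa1 and Fen1, whose arrays overlapped between the groups on the probe sets read. Within pairs, 39 genes were lower in pair 1, 38 in pair 2 and 37 in both. The share of all genes lower within pairs was not counted. Medians within pairs were log2 -0.71 in pair 1 and -0.78 in pair 2, against 0.033 and -0.041 over all genes. At least 1.5-fold lower in both pairs were 20 genes, against 5.77% of all genes, and at least 2-fold lower in both were 7 (Orc1, Cdc6, Mcm10, Gins1, Rrm1, Rrm2 and Tk1), against 2.33%.

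Few single genes passed the test. Rrm2, Tk1 and Rrm1 fell (limma), 3 of the 40 against 1.37% of all genes called lower, and 0 rose. Unadjusted, 27 of the 40 had a p under 0.05 and were lower, against 7.04% of all genes. With the pair number as a block, 26 of the 40 fell and 0 rose, against 6.50% of all genes called lower in that fit, which had 1 residual degree of freedom. The count without the block ran from 0 without labelled-deficient replicate 1, through 1 with wild-type replicate 2 left out and 2 with labelled-deficient replicate 2 left out, to 8 with wild-type replicate 1 left out. With dim probe sets kept it was 0, as it was with no intensity trend. In RNA from a bulk of sorted cells, fewer cells in cycle and less of each transcript per cell cannot be told apart.

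**Figure D1:**
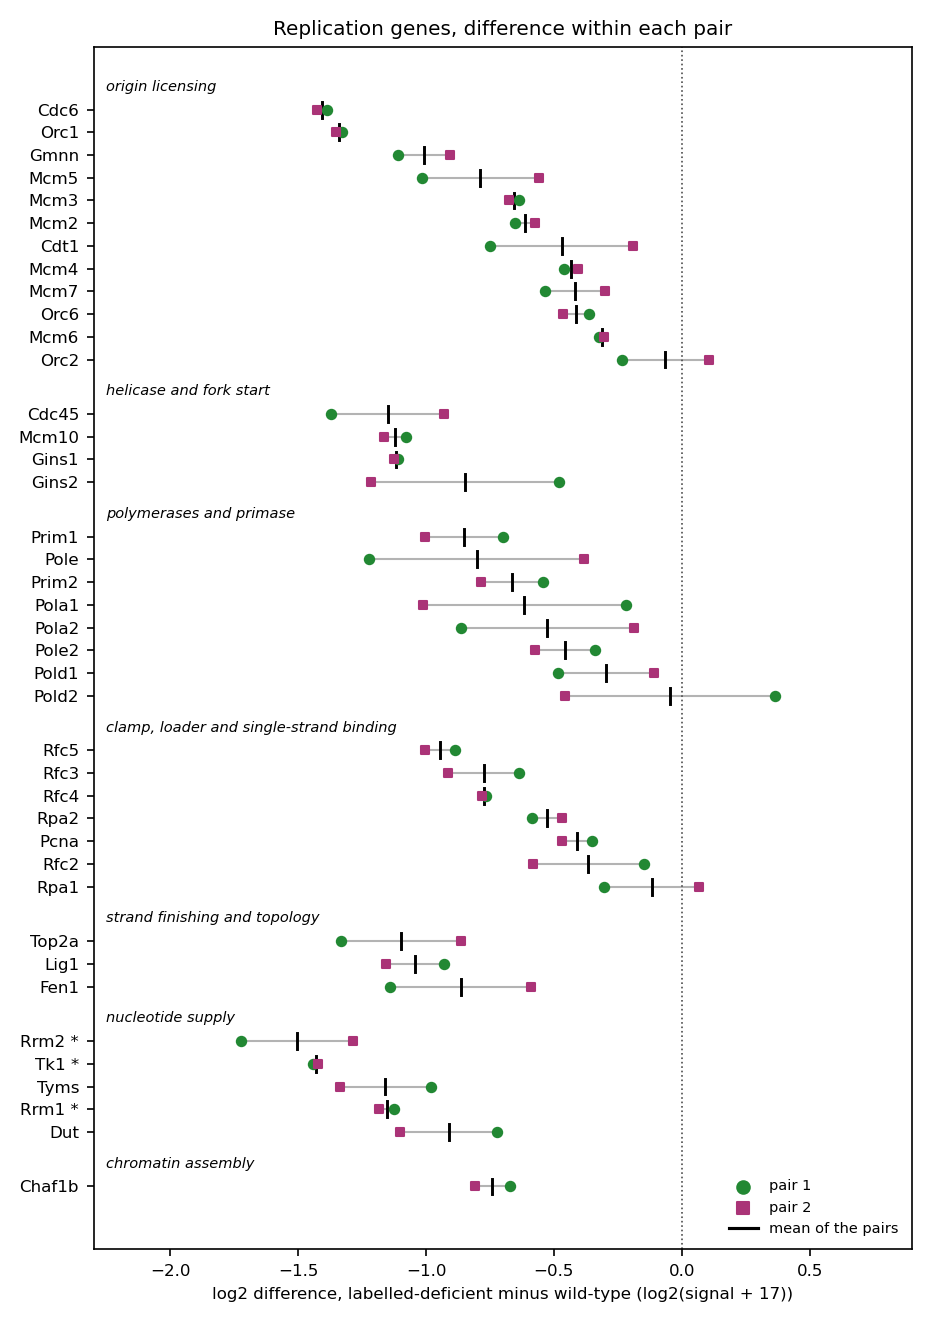
Log2 difference of each of the 40 measured replication genes, labelled-deficient minus wild-type, within pair 1 (circles) and pair 2 (squares), with a bar at their mean, ordered within the role of each gene; an asterisk marks the 3 genes past the threshold without the block. All 40 means lie below 0, and 3 genes (Orc2, Pold2 and Rpa1) have a pair above 0.

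**Figure D2:**
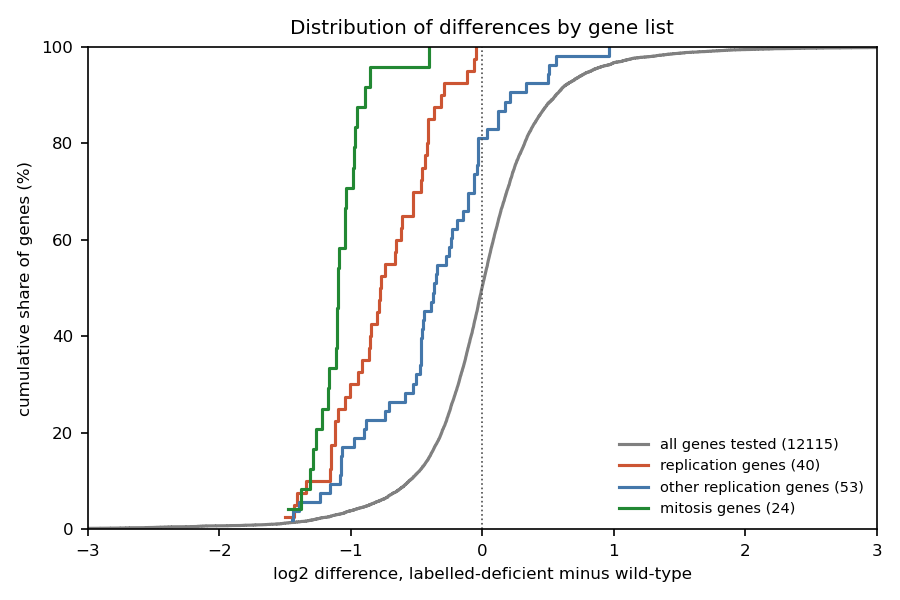
Cumulative share of genes (percent) against log2 difference, for all 12115 genes tested, the 40 replication genes, 53 other replication genes and 24 mitosis genes. The replication genes have a median of -0.77 and none lies above 0, while 50.3% of all genes lie below 0.

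The genes of nucleotide supply held all 3 calls. Rrm2, the regulated small subunit of ribonucleotide reductase, which makes deoxyribonucleotides, read 10041 and 12284 on wild-type arrays 1 and 2, against 3032 and 5032 on the matching labelled-deficient ones. Both labelled-deficient values lay far below both wild-type values. Rrm2 fell 2.84-fold (log2 -1.50 ± 0.26, SE; limma adjusted p = 0.0332). Its large subunit partner Rrm1 went from 3814 and 4884 to 1740 and 2140 and fell 2.23-fold (limma adjusted p = 0.0443). Tk1, the thymidine kinase that salvages thymidine in S phase, read 1292 and 1717 against 465 and 630. Its 2 pairs gave nearly the same difference, log2 -1.44 and -1.42, and the gene fell 2.70-fold (limma adjusted p = 0.0421). Rrm2 missed the threshold without labelled-deficient replicate 1 (limma adjusted p = 0.0736), and Rrm1 and Tk1 passed it only without wild-type replicate 1 among the 4 fits with 1 array left out. Rrm1 stood at log2 -0.85 on the mean of its probe sets (limma adjusted p = 0.133).

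The other 2 genes of this group fell only with the pair as a block. Tyms, thymidylate synthase, was read from a dim probe set, at 179 and 158 against 82.1 and 52.2 (limma adjusted p = 0.169, 0.0464 with the block). A further probe set shared by annotation between this gene and a pseudogene was not used. Dut, which breaks down dUTP so that uracil stays out of DNA, read 5373 and 4757 against 3252 and 2206, 1.88-fold lower (limma adjusted p = 0.109, 0.000525 with the block). All 5 genes of nucleotide supply thus had both labelled-deficient arrays below both wild-type arrays, as for 21.1% of all genes. Their median log2 difference was -1.16.

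Promoters are shown because all 40 log2 differences lay on the same side of 0 and because E2F sites are the known shared element of replication genes. RefSeq promoters (GRCm38.p6, from 250 bases before to 50 after the start) were found for 34 of the 41 genes, and the first listed was taken where a gene had several. The E2F core was searched on both strands as the letters TTCCCGC or TTCGCGC or TTGCCGC or TTGGCGC, which can overlap one another on opposite strands. The 250 bases before the start are printed for the 3 genes that fell, for Pold2, whose difference was nearest to 0, and for Mcm6, chosen after the search because its promoter had the highest number of matches, 5. They lie at chr12:24708004-24708253 on the plus strand (Rrm2), chr11:117826015-117826264 on the minus strand (Tk1), chr7:102441445-102441694 on the plus strand (Rrm1), chr1:128359706-128359955 on the minus strand (Mcm6) and chr11:5878257-5878506 on the minus strand (Pold2). Each is written 5′ to 3′ on the strand of its gene, ending at the base before the start, with E2F core letters in capitals.
Rrm2: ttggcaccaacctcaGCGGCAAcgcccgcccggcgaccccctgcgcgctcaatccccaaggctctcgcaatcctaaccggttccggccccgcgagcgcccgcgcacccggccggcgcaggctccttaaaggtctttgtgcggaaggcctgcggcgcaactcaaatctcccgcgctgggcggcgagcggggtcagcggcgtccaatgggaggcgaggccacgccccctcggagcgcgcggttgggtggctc
Tk1: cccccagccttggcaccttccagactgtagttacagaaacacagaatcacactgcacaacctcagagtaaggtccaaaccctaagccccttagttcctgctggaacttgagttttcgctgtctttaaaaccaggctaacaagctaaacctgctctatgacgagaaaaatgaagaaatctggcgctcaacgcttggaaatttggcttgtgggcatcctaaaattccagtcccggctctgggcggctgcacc
Rrm1: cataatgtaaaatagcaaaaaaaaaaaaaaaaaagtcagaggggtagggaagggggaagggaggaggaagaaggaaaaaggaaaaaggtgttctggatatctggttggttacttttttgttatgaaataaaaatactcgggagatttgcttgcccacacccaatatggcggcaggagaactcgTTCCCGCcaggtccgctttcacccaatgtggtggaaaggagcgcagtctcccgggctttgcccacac
Mcm6: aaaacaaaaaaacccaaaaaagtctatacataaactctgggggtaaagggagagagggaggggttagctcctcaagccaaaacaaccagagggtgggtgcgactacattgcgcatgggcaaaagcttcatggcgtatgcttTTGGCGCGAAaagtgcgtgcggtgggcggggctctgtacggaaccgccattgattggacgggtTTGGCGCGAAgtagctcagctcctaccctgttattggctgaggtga
Pold2: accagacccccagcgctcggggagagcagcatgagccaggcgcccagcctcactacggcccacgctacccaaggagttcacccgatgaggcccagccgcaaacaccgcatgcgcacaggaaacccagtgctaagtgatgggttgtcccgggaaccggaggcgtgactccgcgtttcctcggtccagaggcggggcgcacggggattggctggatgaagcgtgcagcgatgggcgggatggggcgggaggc
Rrm2 and Rrm1 each held 1 match, Tk1 and Pold2 held none, and Mcm6 held 4 in the bases shown, as 2 pairs of overlapping matches on opposite strands starting at -109 and -46. No match says only that these letters are not in this window.

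Over the set, 18 of 34 replication promoters (52.9%) held an E2F core, against 16.8% of 9832 promoters of genes tested on the arrays and 13.6% of 22 mitosis promoters. The FoxO letters GTAAACA stood in 1 promoter, that of Cdc45 (2.94%), against 2.56% of the promoters of tested genes. CCAAT boxes, searched as CCAAT, stood in 61.8% against 38.6%. The letters TTTGAA, known as the CHR element of late cell cycle genes, stood in 11.8% of replication and 68.2% of mitosis promoters, against 12.0%. Within the replication genes, the 17 measured genes with a match had a median log2 difference of -0.74 and the 16 without one -0.89. These shares describe letters in a window and were not tested.

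**Figure D3:**
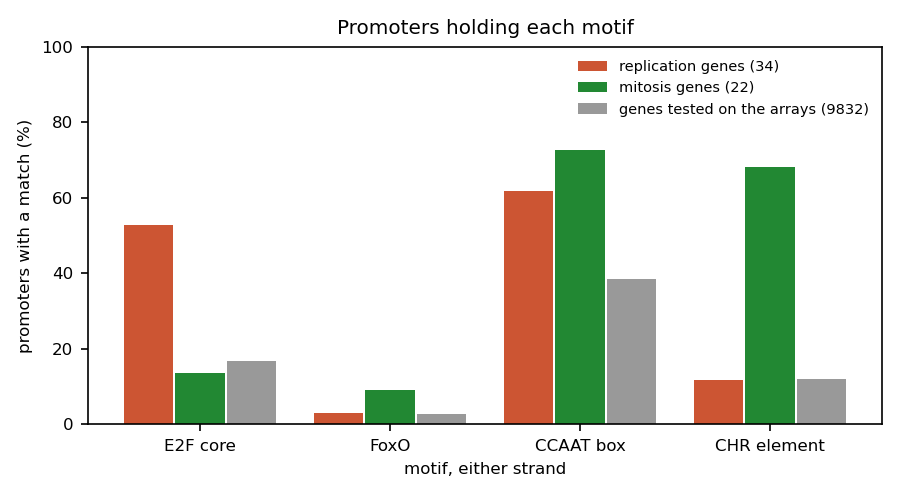
Share of promoters (percent) that hold each motif on either strand, for 34 replication genes, 22 mitosis genes and 9832 genes tested on the arrays. E2F core letters stand in 52.9% of the replication promoters and CHR letters in 68.2% of the mitosis promoters.

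Among the 12 licensing genes Cdc6, Orc1 and Gmnn stood furthest below 0 and Orc2 nearest to it, with a median log2 of -0.54. None passed without the block and 6 fell with it, against 1.37% and 6.50% of all genes called lower. Cdc6, the ATPase that joins the origin recognition complex to load the ring, read 1198 and 1886 on wild-type arrays, against 447 and 691. It was 2.65-fold lower with nearly the same difference in each pair (log2 -1.39 and -1.43), though pair 2 was brighter in both genotypes (limma adjusted p = 0.0724, 2.37e-05 with the block). Orc1, the origin recognition subunit that comes and goes with the cycle, was dim, at 231 and 209 against 81.5 and 71.6, and 2.53-fold lower (limma adjusted p = 0.0788, 0.0123 with the block). Gmnn went from 3657 and 4896 to 1683 and 2601, 2.01-fold lower (limma adjusted p = 0.118, 0.000149 with the block). Cdt1, which geminin blocks, read 6359 and 6073 against 3772 and 5325, and missed the threshold in both fits (0.436 and 0.0806).

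The 6 ring subunits were bright and, on the probe sets read, lower by 1.24-fold (Mcm6) to 1.73-fold (Mcm5), with a median log2 of -0.52. For all 6 both labelled-deficient arrays lay below both wild-type arrays, as for 21.1% of all genes. Sizes varied with the probe set. Dimmer ones that passed the filter stood further below 0 for Mcm5 (log2 -1.05), Mcm4 (-0.64), Mcm6 (-0.46) and Mcm3 (-0.70 to -0.94). For Mcm2 the other one stood nearer to 0 (-0.49), and for Mcm7 the others ran from -0.40 to -0.57. Mcm7 read 11395 and 10532 on wild-type arrays, against 7860 and 8551. Mcm5 read 8811 and 10130 against 4343 and 6878, with most of the gap between pairs on the labelled-deficient side. Without the block none passed (limma adjusted p from 0.154 for Mcm3 to 0.583 for Mcm6), and with it Mcm2, Mcm3 and Mcm5 fell (limma adjusted p = 0.0112, 0.00650 and 0.00266). Orc6 read 825 and 1095 against 637 and 789 and passed in neither fit. Orc2, a subunit of the origin recognition complex kept through the cycle, read 815 and 698 against 690 and 752. It was lower in pair 1 and higher in pair 2, and its log2 difference of -0.06 had a 95% interval from -0.63 to 0.50.

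The 4 genes that turn a licensed origin into a fork had a median log2 of -1.12. Cdc45, which completes the active helicase, read 815 and 692 against 305 and 355 (2.22-fold lower; limma adjusted p = 0.0718, 0.00152 with the block). Gins1, a GINS subunit, read 682 and 744 against 307 and 331, with log2 differences of -1.11 and -1.13 in the 2 pairs. Mcm10, which joins the helicase as the origin fires, read 659 and 1007 against 303 and 440 and was 2.18-fold lower. All 4 genes fell with the block, against 6.50% of all genes called lower in that fit, and none fell without it. For Mcm10, Gins1 and Gins2 the blocked limma adjusted p was 0.00116, 0.00174 and 0.0239. Gins2 differed in its pairs, from 665 to 472 in pair 1 and from 621 to 258 in pair 2.

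Over 8 polymerase and primase genes the median log2 was -0.57. Prim1, the catalytic subunit of primase, read 2326 and 3059 against 1426 and 1515, and fell with the block (limma adjusted p = 0.00118). So did Prim2, its regulatory partner (0.0168), and Pole, the catalytic subunit of polymerase epsilon (0.0192), in the same limma fit. Pole read 965 and 968 on the wild-type but 404 and 739 on the labelled-deficient arrays, so the size of its difference depends on the pair. Pola1 and Pola2, subunits of polymerase alpha, had pair differences of log2 -0.22 and -1.01 and of -0.87 and -0.19. Pola1 read 400 and 1051 on the wild-type against 341 and 512, so its wild-type arrays lay further apart than the groups did. The polymerase delta genes were the nearest to 0 of these 8. Pold2, its second subunit, read 861 and 894 against 1115 and 646, higher in pair 1 and lower in pair 2, with a log2 difference of -0.05 and a 95% interval from -0.75 to 0.65. Pold1, the catalytic subunit, was 1.23-fold lower and passed in neither fit, as Pole2 did not.

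The 7 genes of the sliding clamp, its loader and single-strand binding had a median log2 of -0.53. Pcna, the clamp that holds polymerases on DNA, read 14017 and 12857 against 10977 and 9286, 1.33-fold lower without overlap (limma adjusted p = 0.370, 0.130 with the block). The 4 clamp loader genes were 1.29-fold (Rfc2) to 1.92-fold (Rfc5) lower, and Rfc3, Rfc4 and Rfc5 fell with the block (limma adjusted p = 0.0433, 0.00388 and 0.000692). Rfc5 read 1614 and 2018 against 866 and 998 and Rfc4 1601 and 1810 against 935 and 1047, each with similar differences in both pairs. Rpa2, of the complex that coats single-stranded DNA, fell with the block (limma adjusted p = 0.0379). Rpa1, the large subunit of the same complex, read 15110 and 16122 against 12243 and 16880 and was lower in pair 1 only (log2 -0.12, 95% interval from -0.57 to 0.34).

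The 3 genes of strand finishing and topology had a median log2 of -1.04. All 3 fell with the block, against 6.50% of all genes called lower in that fit. Lig1, the ligase that joins Okazaki fragments, read 2392 and 3206 against 1247 and 1430 (2.06-fold lower; limma adjusted p = 0.0694, 0.000157 with the block). Top2a, the topoisomerase of dividing cells that untangles DNA, read 6831 and 7218 against 2705 and 3962 (2.14-fold lower; limma adjusted p = 0.0542, 9.73e-05 with the block). It passed without wild-type replicate 1 (limma adjusted p = 0.0376), and also when labelled-deficient replicate 2 was left out (0.0351). Fen1, the nuclease that trims Okazaki fragments, read 4705 and 7339 against 2125 and 4871. On this probe set its groups overlapped because the labelled-deficient array of pair 2 lay above the wild-type array of pair 1. Within each pair the labelled-deficient array was lower (limma adjusted p = 0.00122 with the block). A dimmer Fen1 probe set read 1042 and 1816 against 558 and 856, without overlap. Its log2 differences were -0.88 in pair 1 and -1.07 in pair 2. Chaf1b, of the chaperone that puts histones on new DNA, read 935 and 968 against 581 and 545, 1.67-fold lower, and fell with the block (limma adjusted p = 0.0154).

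**Figure D4:**
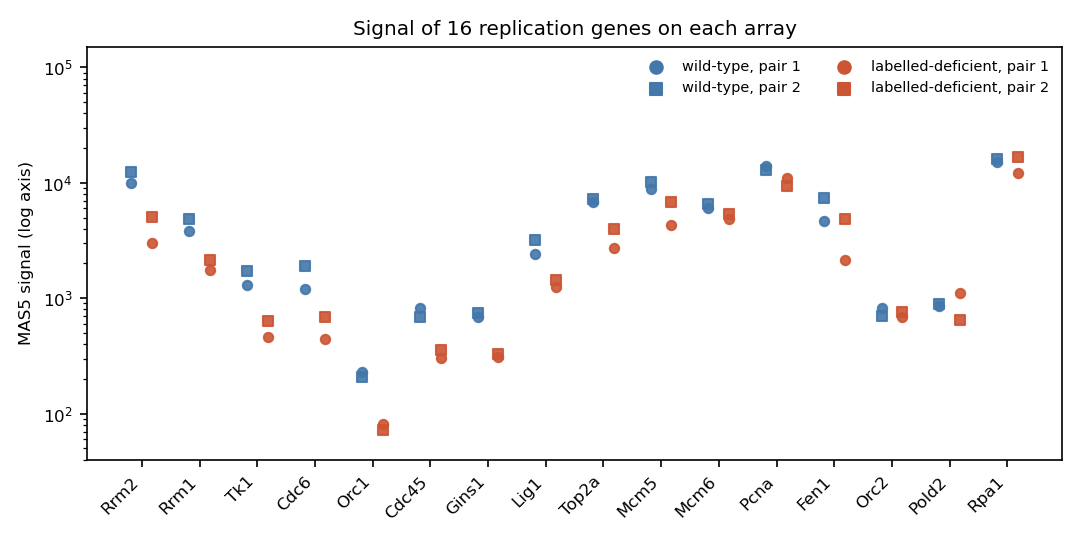
MAS5 signal (log axis) of 16 replication genes on each of the 4 arrays, with wild-type in blue and labelled-deficient in orange, pair 1 as circles and pair 2 as squares. Groups are apart for the 12 genes from Rrm2 to Pcna and overlap for Fen1, Orc2, Pold2 and Rpa1, and levels of different genes cannot be set against each other on this axis.

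The pairs were also compared with each other, as the shift from pair 1 to pair 2 averaged over the 2 genotypes. Opposite shifts in the 2 genotypes cancel in this value, so it does not measure the spread within 1 genotype. The fit had 1 residual degree of freedom. With genotype in the model 4 of the 40 genes were higher in pair 2 (limma), against 3.14% of all genes, and 0 were lower, against 3.96%. They were Fen1 (log2 0.92, limma adjusted p = 0.00268), Pola1 (0.96, 0.0188), Cdc6 (0.63, 0.0448) and Gmnn (0.52, 0.0494). Over the 40 genes the median difference of pair 2 minus pair 1 was log2 0.23, and 27 lay above 0, where the median over all genes was -0.045. For 21 genes the 2 pairs gave genotype differences within log2 0.25 of each other. For 7 they were more than 0.5 apart on the probe sets read: Cdt1, Gins2, Pola1, Pola2, Pold2, Pole and Fen1.

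Further probe sets of the same genes gave a check on the reading of each gene. Of the 89 probe sets 77 passed the filter, and 28 genes had more than 1. Of these 77, 74 had a log2 difference below 0 and 67 were lower in both pairs, shares that were not counted over all probe sets. The 3 above 0 belonged to Orc2, Pole2 and Cdc45, each with a brighter probe set below 0. The second Rrm2 probe sets read 3013 and 5399 against 846 and 1793, and 1833 and 1964 against 667 and 772. All 4 Mcm7 and all 5 Mcm3 probe sets were lower in both pairs. For Rrm1 a dimmer probe set read 545 and 898 against 532 and 422, lower in pair 2 with almost no gap in pair 1. For Dut a second, dim probe set read 74.2 and 78.2 against 92.1 and 50.6, higher in pair 1 and lower in pair 2.

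Other genes of the replication machinery were taken from a second list. Of 56 genes 53 were tested, 43 lay below 0, against 50.3% of all genes, and the median log2 difference was -0.37. Without the block 2 fell and 1 rose, and with it 13 fell and 2 rose (limma, 1.37% and 6.50% of all genes lower). Of all 12115 genes 149 rose without the block and 659 with it. Asf1b, a histone chaperone of dividing cells, fell from 3037 and 2905 to 1130 and 1043 (2.71-fold; limma adjusted p = 0.0174). Clspn, the fork protein claspin, fell from 1293 and 1207 to 475 and 422 (2.72-fold; limma adjusted p = 0.0279). It missed the threshold on the first-listed probe set (log2 -0.92; limma adjusted p = 0.369) and on the mean of its probe sets (0.0529). Top2b, the topoisomerase also made by resting cells, rose from 2844 and 3108 to 5563 and 6085 (limma adjusted p = 0.0442). Asf1b passed without either wild-type array and missed the threshold without either labelled-deficient one (limma adjusted p = 0.0508 and 0.0659), and so did Clspn (0.0759 and 0.106). Top2b missed it without any 1 of the 4 arrays (0.0528 to 0.223) and on the mean of its probe sets (0.215). Mcmbp, which binds Mcm subunits, was the second gene to rise with the block (limma adjusted p = 0.0329), and was named after its values were seen. Among the genes that fell only with the block were Uhrf1 (log2 -1.23; limma adjusted p = 8.15e-05), Dscc1 (-1.39; 0.000171) and Tipin (-0.88; 0.000718), picked in the same way.

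Related genes with another use in the cell gave a contrast that was picked after the values were seen. Top2a and Top2b went in opposite directions, at log2 -1.10 ± 0.23 and 0.96 ± 0.19 (SE). Beside Rrm2, Rrm2b, the reductase subunit used outside S phase, stood at 0.12 ± 0.28. Beside Tk1, the mitochondrial kinase gene Tk2 stood at 0.12 ± 0.24. Beside Asf1b, Asf1a stood at -0.06 ± 0.22. Of the origin recognition subunits, Orc1 stood at -1.34 ± 0.32 and Orc6 at -0.41 ± 0.26, Orc2, Orc3 and Orc4 at -0.06, 0.04 and 0.18, and Orc5 at 0.51 ± 0.23. The difference between the members of each couple was not tested.

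**Figure D5:**
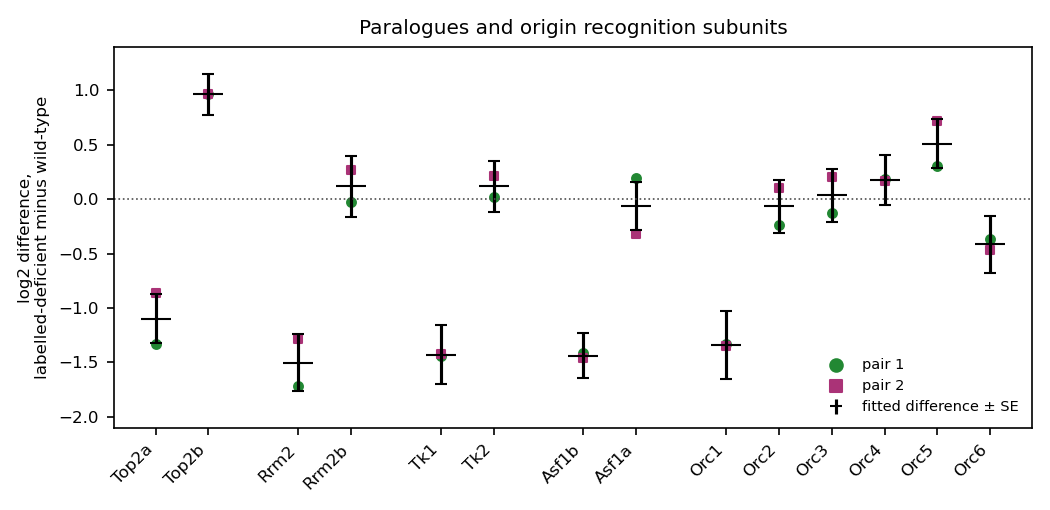
Log2 difference, labelled-deficient minus wild-type, of 4 couples of related genes and of the 6 origin recognition subunits, with the fitted value ± SE in black and the values of pair 1 (circles) and pair 2 (squares). Top2a, Rrm2, Tk1, Asf1b and Orc1 lie below -1, and their partners lie between -0.41 and 0.96.

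E2F factors and other genes that control S phase were read from another list of 26 genes. Of these 20 lay below 0, against 50.3% of all genes, with a median log2 difference of -0.44. Without the block 3 fell and 0 rose (limma, 1.37% of all genes lower), and with it 9 fell and 1 rose (6.50% lower). In the fit with the block 659 of all 12115 genes rose. E2f8, an atypical E2F that represses the others late in S phase, fell from 1680 and 2224 to 372 and 661 (3.80-fold; limma adjusted p = 0.0285). Ccna2, the cyclin of S phase, fell 2.29-fold (limma adjusted p = 0.0410) and Ccne2, a cyclin of S phase entry, 2.45-fold (0.0496). With every probe set tested Ccna2 and Ccne2 missed the threshold (limma adjusted p = 0.0543 and 0.0670). Ccne2 also missed it with no pseudocount (limma adjusted p = 0.0525) and with the median as pseudocount (0.0514). With every gene read from its first-listed probe set it missed too (limma adjusted p = 0.0561), though its own log2 difference stayed at -1.29. Without the filter or the intensity trend none of the 3 passed, nor without labelled-deficient replicate 1, and only E2f8 passed without labelled-deficient replicate 2 (limma adjusted p = 0.00876). Ccna2 and Ccne2 also missed the threshold without wild-type replicate 1 (limma adjusted p = 0.0743 and 0.0971).

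The activating E2F genes showed smaller differences. E2f1 read 252 and 285 against 191 and 198, and E2f2 1510 and 1704 against 1194 and 1401, and neither passed in either fit. E2f3 read 711 and 1767 against 466 and 799 and fell only with the block (limma adjusted p = 0.00584), as did E2f7, the other atypical member, at 468 and 541 against 209 and 263 (0.00744). E2f4, E2f5 and E2f6 had log2 differences of -0.21, 0.53 and -0.17 and passed in neither fit. The signs of E2f4 and E2f6 turned without 1 of several arrays. Myc, a driver of growth and cycle entry, went the other way, from 1148 and 958 to 2356 and 1731, and rose only with the block (limma adjusted p = 0.000656). It was named after its values were seen. The genes of this list that fell only with the block were E2f3, E2f7, Rbl2, Ccne1, Chek1 and Fbxo5. Mki67, the marker of cells in cycle, read 13243 and 13257 against 5977 and 7079 and fell 2.03-fold (limma adjusted p = 0.0304; 0.140 without labelled-deficient replicate 1).

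Mitosis genes were read from a further list. All 24 tested lay below 0, against 50.3% of all genes. Their median log2 difference was -1.10, against -0.77 for replication genes. Without the block 6 fell and with it 23 (limma, 1.37% and 6.50% of all genes lower). The 6 were the mitotic kinase genes Aurkb and Cdk1, the cyclin gene Ccnb2, the kinetochore gene Nuf2 and the spindle checkpoint genes Bub1b and Mad2l1, between 1.97-fold (Ccnb2) and 2.79-fold (Aurkb) lower. Their number became 0 without labelled-deficient replicate 1, 2 with labelled-deficient replicate 2 left out and 11 with wild-type replicate 1 left out. The difference between the 2 sets was not tested.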

How the data were processed

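Treg cell RNA was hybridised to 4 arrays, 2 per group and 2 per numbered pair. The authors deposited linear probe-set intensities; the submitters' processing notes name MAS5, without version or settings. Extraction used a Qiagen kit and biotin labelling followed the Affymetrix protocol, per the labels. The table held 45101 probe sets, of which 64 were controls; 34945 carried 1 gene symbol, 932 several and 9160 none. Symbols were updated by gene identifier through RefSeq (GRCm38.p6). Detection calls were not analysed here; 2 arrays a group limit the precision.

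Signals were taken as log2(signal + 17), 17 being the rounded 25th percentile. Dim probe sets, with a mean below the 40th percentile (near a signal of 40.5), were dropped, and each gene was read from its brightest remaining probe set. Groups were compared over all 12115 genes in R 4.3.3 by the lmFit and trended eBayes functions of limma 3.58.1 (two-sided), adjusted by Benjamini-Hochberg; 2 residual degrees of freedom were joined by 5.67 from the shared variance model. For 2 arrays against 2 the smallest exact permutation p is 0.333. The script was tested on simulated data.

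The numbers were taken to pair the arrays because the titles call them pairs. Deviations from the group means correlated between same-numbered arrays with r = 0.368 across genes, which are not independent. The fit without the pair was the main one, and the blocked value is printed beside each replication gene whose call it changed.

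The members and lists were chosen with earlier results of these data known. Named genes are the members, those of the other lists past the threshold (at most the 6 with the smallest adjusted p), E2f1 to E2f8, Mki67, Foxo1 and Foxo3. Outside this rule stand Foxp3 and single markers, genes called only with the block, related genes set beside members, and the Mcm6 promoter. Alternatives were the pseudocount, the filter, the probe set, the variance model, quantile normalization, the block and each array left out.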

Additional observations from a re-analysis of the deposited data

How the results depend on the processing

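All 40 differences stayed below 0 with no pseudocount, the median as pseudocount, the first-listed probe set and quantile normalization. No filter, every probe set tested, no intensity trend and the replicate block left the differences as they were. These settings read the same probe sets and alter only the test, so they are no check on the signs. The filter at the 60th percentile kept 38 genes, all below 0. The sign of Pole2 turned on the mean of probe sets (0.11). With 1 array left out signs turned for Orc2 (-0.17 to 0.044), Pola1 (-1.29 to 0.063), Pold2 (-0.43 to 0.34), Rpa1 (-0.35 to 0.11), E2f4 (-0.92 to 0.50) and E2f6 (-0.42 to 0.082): without wild-type replicate 1 for Orc2 and E2f4, without wild-type replicate 2 for Pola1 and E2f6, without labelled-deficient replicate 1 for Rpa1 and E2f6, and without labelled-deficient replicate 2 for Pold2 and E2f4. None of these genes was called.

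The replication genes called lower, 3 in the main comparison, were 0 without the filter, 0 without the intensity trend, 1 with every probe set tested, 26 with the pair block and 0 to 8 with 1 array left out. Their median of -0.77 became -0.71 with the median as pseudocount and ran from -0.81 to -0.64 with 1 array left out. At least 2-fold lower in both pairs were 7 genes, and 4 with the median as pseudocount. Those higher in pair 2, 4 in number, became 1 without the filter, 0 on first-listed probe sets, 1 with every probe set and 0 without the trend; leaving out an array gave that comparison no residual degrees of freedom.

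Without the filter, without the trend and with the pair block, the other replication genes called lower (2) were 1, 0 and 13, those called higher (1) 0, 0 and 2, the E2F and S-phase genes called lower (3) 0, 0 and 9, the mitosis genes called lower (6) 1, 0 and 23, all genes lower (166) 45, 55 and 787, and all genes higher (149) 46, 58 and 659. The block also called 1 E2F and S-phase gene higher. With every probe set tested, 0 other replication genes were higher, 1 E2F and S-phase gene and 2 mitosis genes lower. On the mean of probe sets 1 other replication gene was lower and 0 higher, and on first-listed probe sets 1 was lower. With 1 array left out, these counts ran from 0 to 6, 0 to 0, 0 to 4, 0 to 11, 82 to 262 and 70 to 271 in the same order, with 0 E2F and S-phase genes higher. The cause of these changes was not tested. Among replication genes the block changed only the calls named above.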
